A study of Homo sapiens with 9 samples.

Results

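The p65 binding sites of 786-O cells were compared between a control library and a library labelled siTEAD4. 786-O is an established human line from a clear cell renal cell carcinoma. Sites were taken from the peak lists of the samples titled p65_Ctrl and p65_siTEAD4, all peaks included: 15465 control peaks and 1813 peaks labelled siTEAD4, together 17278 of the 60345 peaks in the series. A control peak was called kept when it shared at least 1 bp with a peak labelled siTEAD4, and lost otherwise. A peak labelled siTEAD4 that shared no base with a control peak was called new. By this rule 1737 of 15465 control peaks (11.2%) were kept, 13728 (88.8%) were lost, and 67 of the 1813 peaks labelled siTEAD4 (3.70%) were new.

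The series measures protein occupancy on DNA by chromatin immunoprecipitation and sequencing (ChIP-seq) in 9 libraries, 1 per condition. The control p65 library has no treatment in its labels. The other carries an siRNA that its title calls siTEAD4 and its treatment label siTEAD. Both came from the same line, in the same growth medium, fixed with 1% formaldehyde for 10 min. Duration and dose of the siRNA, and a measure of TEAD4 itself, were not analysed here. The peak identifiers inside the list labelled siTEAD4 carry the name p65_Vert, which is in no label, so its treatment rests on the sample label alone. The other 3 immunoprecipitates served as independent readouts at the same sites: p65 in vehicle cells, p65 in cells given XMU-MP-1, an inhibitor of the kinases MST1 and MST2, and TEAD in XMU-MP-1 cells. With 1 library per condition every comparison is a description, and intervals cover the counting of peaks only.

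p65, the product of RELA, is the main transactivating subunit of NF-κB. In resting cells it is held in the cytoplasm by inhibitors such as IκBα (NFKBIA). Signals from cytokine receptors degrade the inhibitor, and p65 enters the nucleus, where it binds κB sites at genes for cytokines, survival factors and its own inhibitors. TEAD4 is a DNA-binding partner of YAP, the coactivator restrained by the Hippo kinases, and TEAD factors are often found at enhancers together with AP-1. The question of the comparison, as the series title frames it, is how p65 and TEAD4 act together in this carcinoma.

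Promoters of NF-κB pathway genes with different fates of the p65 peak at the gene start are shown first. Each is the RefSeq promoter on GRCh38.p14, read on the gene's own strand from 250 bases before to 50 after the start. Capitals mark matches to the κB consensus, a motif of 10 letters that opens with GGG and ends with CC, searched on both strands. NFKBIA, TNFAIP3 and NFKB1 had a kept p65 peak at the start.
NFKBIA: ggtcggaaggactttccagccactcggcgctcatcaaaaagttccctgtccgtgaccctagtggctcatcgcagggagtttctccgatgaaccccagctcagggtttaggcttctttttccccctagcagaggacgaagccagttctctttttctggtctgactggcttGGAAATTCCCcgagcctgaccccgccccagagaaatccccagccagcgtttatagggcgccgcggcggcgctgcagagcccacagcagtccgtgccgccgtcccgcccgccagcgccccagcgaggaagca
TNFAIP3: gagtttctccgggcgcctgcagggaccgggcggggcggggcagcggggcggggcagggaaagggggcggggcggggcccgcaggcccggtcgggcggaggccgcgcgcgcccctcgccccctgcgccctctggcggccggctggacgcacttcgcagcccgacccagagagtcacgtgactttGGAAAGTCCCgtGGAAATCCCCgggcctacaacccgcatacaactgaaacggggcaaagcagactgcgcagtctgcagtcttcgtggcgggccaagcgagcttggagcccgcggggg
NFKB1: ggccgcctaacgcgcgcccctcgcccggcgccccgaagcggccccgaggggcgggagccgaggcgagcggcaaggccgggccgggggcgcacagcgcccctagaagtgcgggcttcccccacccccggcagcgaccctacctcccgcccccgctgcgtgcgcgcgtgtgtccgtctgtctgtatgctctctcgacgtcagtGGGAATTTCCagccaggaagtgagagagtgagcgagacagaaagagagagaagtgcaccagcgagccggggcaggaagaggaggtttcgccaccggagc
TRAF3, BCL3 and CXCL1 had only lost peaks at the start.
TRAF3: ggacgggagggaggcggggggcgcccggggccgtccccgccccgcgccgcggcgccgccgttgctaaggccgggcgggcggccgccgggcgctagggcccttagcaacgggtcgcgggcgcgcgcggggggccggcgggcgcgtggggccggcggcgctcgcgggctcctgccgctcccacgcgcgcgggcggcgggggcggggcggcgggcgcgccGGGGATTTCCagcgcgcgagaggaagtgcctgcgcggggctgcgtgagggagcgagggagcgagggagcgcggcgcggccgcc
BCL3: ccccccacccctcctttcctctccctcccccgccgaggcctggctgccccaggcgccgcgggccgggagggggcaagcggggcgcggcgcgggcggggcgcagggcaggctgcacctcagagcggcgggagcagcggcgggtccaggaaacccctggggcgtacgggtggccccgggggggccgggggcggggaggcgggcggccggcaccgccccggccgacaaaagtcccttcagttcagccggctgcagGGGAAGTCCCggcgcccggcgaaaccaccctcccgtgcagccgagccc
CXCL1: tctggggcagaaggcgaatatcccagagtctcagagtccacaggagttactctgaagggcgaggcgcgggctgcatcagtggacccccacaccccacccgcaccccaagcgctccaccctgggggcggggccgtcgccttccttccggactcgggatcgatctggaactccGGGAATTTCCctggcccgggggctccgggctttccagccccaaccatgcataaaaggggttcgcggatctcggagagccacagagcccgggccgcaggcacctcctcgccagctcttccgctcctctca
IL6 had no control peak within 1 kb of its start and a new peak there.
IL6: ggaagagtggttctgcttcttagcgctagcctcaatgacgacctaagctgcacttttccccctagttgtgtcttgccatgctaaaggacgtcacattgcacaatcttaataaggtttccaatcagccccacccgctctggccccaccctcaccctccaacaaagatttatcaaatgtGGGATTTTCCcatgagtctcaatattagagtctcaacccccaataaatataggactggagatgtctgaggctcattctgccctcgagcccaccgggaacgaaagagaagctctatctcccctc
Both fates thus occurred at promoters with a κB match. TNFAIP3 holds 2 matches and each of the other promoters printed holds 1. None of the 7 holds the TEAD motif GGAATG or the AP-1 motif TGANTCA. These 7 were chosen after the matches were seen. Over all listed genes found in the promoter table, a κB match was present at 8 of 15 with a kept peak at the start, at 11 of 32 with only lost peaks there, and at 7 of 50 with none. Of all 35116 RefSeq promoters of this length, 7.73% hold a κB match, 14.0% the TEAD motif and 7.71% the AP-1 motif. The TEAD motif was present at 1 of the 15 kept, 2 of the 32 lost and 9 of the 50 promoters without a peak. The AP-1 motif was present at 1, 2 and 6 of them.

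Kept sites were matched closely in position. Summits of the kept pairs lay 31.0 bp apart at the median, and 70.1% lay within 50 bp. Of the 1746 peaks labelled siTEAD4 with a control peak, 1430 (81.9%) lay wholly inside it. The smallest overlap of a kept pair was 9 bp, and 17 pairs overlapped by less than 50% of the shorter peak. On the other side of the limit, the closest lost peak lay 22 bp from a peak labelled siTEAD4. Only 202 lost peaks had such a peak within 1 kb and 1109 (8.08%) within 10 kb. The median lost peak was 308 kb away from any peak labelled siTEAD4, and 3028 (22.1%) were over 1 Mb away. Most lost peaks thus had no peak labelled siTEAD4 close by. That list is sparse, with a median gap of 161 kb from each of its peaks to the next. No expected distance was computed, so these distances are a description of the lists.

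Peaks of the other lists were present at different shares of these classes, which were not matched by control fold here. A vehicle p65 peak was present at 99.2% (95% Wilson interval 98.7 to 99.5) of kept and 77.0% (76.3 to 77.7) of lost sites. An XMU-MP-1 p65 peak was present at 68.1% (65.9 to 70.3) of kept and 2.83% (2.56 to 3.12) of lost sites. TEAD was called at 72.9% (70.7 to 74.9) of kept sites, 44.2% (43.3 to 45.0) of lost sites and 62.7% (50.7 to 73.3) of new sites. Kept sites were also the stronger ones, with a median control fold of 12.7 against 5.72 at lost sites. The fold is the authors' ratio of signal at the summit to the local background of the same library, so folds of different lists show no change in occupancy when set side by side.

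The lists give no read totals. From each peak's fold and p-value the fragment pileup and background were solved for 98.71% of control peaks and for every peak labelled siTEAD4. Control pileups came in steps of 0.5865 and those labelled siTEAD4 in steps of 1.0, so the pileups of both lists are on different scales. In whole fragments, the value divided by its step, the lowest 1% of local background was 2.31 in the control list and 2.34 in the other. On the scale of its own list, kept sites had a median pileup of 48.1 over a background of 2.96 in the control list and of 28.0 over 4.44 in the other. Lost sites had 19.4 over 2.35 in the control list. These medians were not converted to whole fragments. With the smaller step, a control value stands for more fragments than the same value in the other list. At kept sites the control median pileup was therefore the higher one, both as printed and in whole fragments. The control background was lower as printed, so without conversion its medians do not show which list had more. Without read totals neither gives a difference in occupancy. The part of background and of library quality in the loss was not tested.

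At the genes of the NF-κB pathway itself, p65 peaks at gene starts were kept at 2 of the 5 subunit genes (NFKB1 and NFKB2) and at 8 of the 9 feedback genes that had a control peak there. Together these were 10 of 14 starts (71.4%), beside 11.2% of all control peaks and 34.5% of those in the highest quartile of control fold. All of these starts had a control fold in that quartile, above 8.30. The quartile's median fold was 11.4, and each of these starts except that of RELA (11.1) lay above it. Its share is thus a low yardstick for them: of the 100 highest control folds 95 were kept. A start counted as kept when any peak within 1 kb of it was kept, unlike the shares of single peaks. Gene positions on hg19 were entered by hand and checked only by length or offset against RefSeq, so all gene assignments here rest on that table. Of 17 genes placed, 10 had a kept peak within 1 kb of the start, 4 had only lost peaks there (RELA, REL, RELB and BCL3) and 3 had no control peak there. NFKBIA, the gene of IκBα, had p65 folds of 35.5 (control), 34.2 (labelled siTEAD4), 44.3 (vehicle) and 38.2 (XMU-MP-1). It ranked 13 in the control list and 1 in the list labelled siTEAD4. NFKB2, which encodes the p100 precursor of p52, had folds of 44.1 in the control, 23.3 in the siTEAD4-labelled, 29.6 in the vehicle and 14.2 in the XMU-MP-1 list. TNFAIP3, the gene of the ubiquitin-editing enzyme A20, had 27.7 and 14.2 in the control and siTEAD4-labelled lists. These starts had peaks in both lists of the comparison and were among the strongest sites of each.

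The other kept starts carried lower folds in the list labelled siTEAD4. NFKB1, the gene of p105 and p50, had folds of 15.7 (control) and 8.51 (labelled siTEAD4). For the inhibitor genes NFKBIE, NFKBIB and NFKBIZ the control folds were 20.8, 17.7 and 17.8, and the siTEAD4-labelled folds 7.90, 5.71 and 3.32. TNIP1, which encodes a partner of A20, had 16.3 and 5.40. CYLD, a deubiquitinase that restrains the pathway, had 11.6 and 8.56, and the RNA-decay factor gene ZC3H12C had 11.8 and 4.35. The control fold did not separate these from the lost starts. RELB, the partner of p52, had a control fold of 28.5 and a vehicle fold of 22.6 with no peak labelled siTEAD4 within 247 kb. BCL3, an atypical IκB protein, had 25.9 and 26.0 in the control and vehicle lists, and the nearest peak labelled siTEAD4 lay 5.49 kb away. RELA and REL had control folds of 11.1 and 12.53 and vehicle folds of 14.3 and 10.5. TEAD was called at 7 of the 10 kept starts and at 1 of the 4 lost starts, that of REL, beside 72.9% of all kept and 44.2% of all lost sites.

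**Figure D1:**
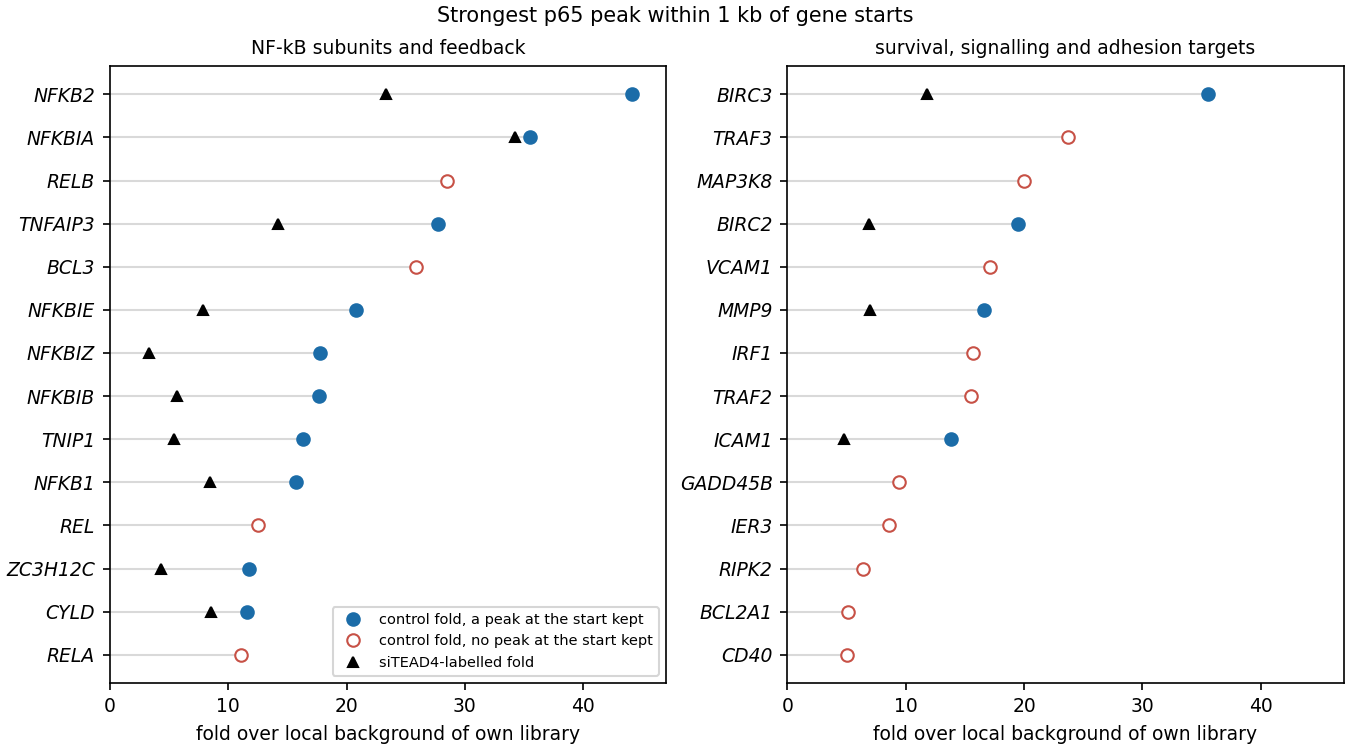
Strongest p65 peak within 1 kb of the start for NF-κB pathway genes (left) and for survival, signalling and adhesion genes (right). The x axis is the fold over the background of each library, filled and open circles are control folds at starts with and without a kept peak, and triangles are siTEAD4-labelled folds. RELB at 28.5 and BCL3 at 25.9 have no triangle although NFKB1 at 15.7 has one; at ICAM1 the circle of 13.8 is a lost peak and the kept peak there had a control fold of 9.12.

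Within 50 kb of the starts of these 17 genes lay 75 control peaks, of which 25 (33.3%, 23.7 to 44.6) were kept. Peaks of the same control fold deciles were kept at 26.4% over the whole list, a share closer to that of these genes than the 11.2% of all control peaks. TNIP1 held the most, 9 kept of 13. ZC3H12A, the gene of the RNase regnase-1, had no peak at its start but 3 kept of 5 nearby, the strongest with folds of 26.8 and 10.5. NFKBIA had 8 lost peaks within 50 kb besides the kept peak at its start, with control folds up to 14.9. No control peak within 50 kb of RELA, RELB, REL or TNIP2 was kept. The highest control fold near TNIP2, another gene of an A20-binding protein, was 15.7.

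Among survival, signalling and adhesion genes, 4 of the 14 starts with a control peak (28.6%) had a kept one. Of all control peaks 11.2% were kept, and of those in the highest quartile of control fold, where most of these starts fell, 34.5%. These were BIRC2, BIRC3, MMP9 and ICAM1. The other 10 starts had only lost peaks, and 7 of the 21 genes placed had no control peak there. BIRC3 and BIRC2 are neighbours on chromosome 11 and encode inhibitors of apoptosis that act as ubiquitin ligases in NF-κB signalling. Their starts had control folds of 35.5 and 19.5 and siTEAD4-labelled folds of 11.8 and 6.88, and all 3 control peaks within 50 kb of them were kept. MMP9, a secreted matrix protease, had 16.6 and 6.96. At ICAM1, which encodes an adhesion receptor for leukocytes, the strongest peak at the start (13.8) was lost and a weaker one was kept, with folds of 9.12 and 4.78.

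Lost starts of this list included strong control peaks. TRAF3, an adaptor that restrains the noncanonical pathway, had a control fold of 23.7 and a vehicle fold of 19.0. MAP3K8, the kinase TPL2, had 20.01 and 23.7. VCAM1, another adhesion receptor, had 17.1 and 13.9. IRF1, TRAF2 and GADD45B had control folds of 15.7, 15.5 and 9.41, and each kept a different peak within 50 kb, with control folds of 27.5, 22.5 and 16.2. The gene with the most kept peaks in this list was IRAK2, a kinase of interleukin-1 receptor signalling, with 4 kept of 6 and a strongest pair of 21.1 and 14.6, none of them at the start. SELE, the gene of E-selectin, had its only control peak within 50 kb kept (13.7 and 8.49). TRAF1, PLAU and the apoptosis inhibitor gene BCL2L1 each had 1 kept peak away from the start, with control folds of 13.4, 11.1 and 7.31, and IER3 had 2, up to 9.69. Over the list 20 of 76 control peaks (26.3%, 17.7 to 37.2) were kept, against 21.6% at the same fold deciles.

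Chemokine and cytokine genes had 25 of 71 control peaks kept within 50 kb (35.2%, 25.1 to 46.8), against 19.3% at the same fold deciles. Peaks can lie within 50 kb of several genes of a cluster and were counted once per list. At gene starts, 4 of 22 genes had a kept peak (CXCL5, CXCL8, IL32 and CSF1), 7 had only lost peaks and 11 had no control peak. The kept ones were 36.4% of the 11 starts with a control peak. Of all control peaks 11.2% were kept, and of those in the highest quartile of control fold 34.5%. CXCL8, the neutrophil chemokine interleukin-8, had folds of 14.5 (control), 8.51 (labelled siTEAD4), 20.7 (vehicle) and 11.9 (TEAD). CXCL5 had 19.95 and 7.24, IL32 24.5 and 8.63, and CSF1, the growth factor of macrophages, 19.3 and 3.45. The CXCL1, CXCL2 and CXCL3 starts, in the same chemokine cluster on chromosome 4, had control folds of 13.4, 7.81 and 6.89 and no kept peak, and CXCL10 had 10.1. A kept site of 24.9 and 3.89 lay within 50 kb of CXCL2. Near LIF, an interleukin-6 family cytokine, 7 of 13 control peaks were kept, with control folds up to 17.0. CCL2, a monocyte chemokine, had 1 kept and 1 lost peak of nearly equal control fold, 15.2 and 15.6. Near CSF2, 3 of 6 were kept, and the peak at its start (5.24) was lost. At TNF and LTB, which lie side by side, 1 of 4 was kept, with folds of 21.2 and 6.59. At IL1A and IL1B, also neighbours, it was 1 of 3, with folds of 10.2 and 8.35. At IL6 the 3 control peaks within 50 kb were lost, the strongest with a fold of 9.28, and a new peak covered its start. CXCL1 and CXCL10 also had no kept peak within 50 kb, but IL6 was the 1 gene of this list with a new peak there. That new peak, with a fold of 4.98, was also a vehicle peak (6.96) and a TEAD peak (10.5).

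Kept peaks near textbook YAP and TEAD target genes mostly lay away from the start. Of 24 genes, 17 had a control peak within 50 kb and 11 a kept one, with 17 of 59 peaks kept (28.8%, 18.8 to 41.4; 15.3% at the same fold deciles). Only CCN1, which encodes the matricellular protein CYR61, had a kept peak at its start, with folds of 6.26 (control), 4.22 (labelled siTEAD4) and 16.7 (TEAD). It was 1 of 7 starts with a control peak (14.3%), beside 11.2% of all control peaks. All 4 control peaks near CCN1 and all 3 near the receptor tyrosine kinase gene AXL were kept, the strongest with control folds of 16.1 and 23.1. FJX1, ARHGEF17, NUAK2, AJUBA and GADD45A had kept peaks off the start with control folds of 17.6, 22.5, 17.0, 13.4 and 13.1. Lower ones stood near TGFB2 (9.49), AMOTL2 (5.83), NT5E (5.32) and ASAP1 (2.56). Another 6 starts had only lost peaks, among them ANKRD1, with a control fold of 6.87 beside a TEAD fold of 46.9, and F3, the gene of tissue factor, with 8.50. No control peak lay within 50 kb of CCN2. The 3 genes with the strongest peak among those without a kept one were MYOF (10.8), RBMS3 (10.6) and PTPN14 (9.94).

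Of 16 Hippo pathway genes placed, 8 had a control peak within 50 kb, and WWC1, the gene of the scaffold protein KIBRA, was the one gene with kept peaks (3 of 7, strongest control fold 18.7). In all 3 of 18 control peaks (16.7%, 5.84 to 39.2) were kept, against 10.9% at the same fold deciles. At NF2, which encodes merlin, the stronger of 2 lost peaks had a control fold of 19.0, and near TAOK1, a kinase upstream of MST1 and MST2, a lost peak had 6.59. TEAD4 itself had 2 lost peaks, one of control fold 11.1 and one at its start of 4.24 with no vehicle peak there. These are p65 sites and give no measure of the knockdown.

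At AP-1 genes 6 of 9 starts had a control peak and each was lost, beside a loss of 88.8% over all control peaks: FOS (3.96), FOSL1 (4.40), JUN (8.06), JUNB (7.51), JUND (5.80) and MAFF (4.65). No peak was kept within 50 kb of FOS, JUN or JUND, while MAFF, JUNB, FOSL1 and FOSB had kept peaks away from the start. MAFF, which encodes a small MAF protein, had a distal pair of 39.1 and 10.5, JUNB one of 29.5 and 7.66, and FOSB one of 16.4 and 4.29. The strongest kept site near FOSL1 had a control fold of 28.9. Over this list 9 of 39 control peaks (23.1%, 12.6 to 38.3) were kept, against 18.4% at the same fold deciles. Among hypoxia response genes, which are constitutively active in lines that lack VHL, 5 of 32 (15.6%, 6.86 to 31.8) were kept, against 6.01%. They lay near NDRG1, EGLN3, CA9 and SLC2A1. Near VEGFA all 7 control peaks were lost, up to a fold of 8.39, near EPAS1, the gene of HIF-2α, all 5, and near CCND1, the gene of cyclin D1, all 4, up to 9.64. Of the kidney lineage factors, PAX8 kept 2 of 5 peaks and PAX2 1 of 3, and the peak at the start of WT1 (5.41) was lost. Over the kidney list 3 of 11 control peaks (27.3%, 9.75 to 56.6) were kept, against 7.76% at the same fold deciles. The Hippo, hypoxia and kidney lists rest on few peaks. Their intervals hold the 11.2% of all control peaks, and those of the hypoxia and kidney lists lie above the share at the same fold deciles. No vehicle p65 peak stood at the lost starts of FOSL1, EPAS1, EGLN3 or ADM.

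Control folds of 34.0 to 51.5 marked the 15 strongest kept sites. All had vehicle and XMU-MP-1 peaks, and 10 had a TEAD peak, beside 99.2%, 68.1% and 72.9% of all kept sites. At the head of the list was a site on chromosome 13 with no gene of the table within 50 kb, whose control fold was 51.5 and siTEAD4-labelled fold 12.6. NFKB2, BIRC3 and NFKBIA starts were among the 15. The others at genes of the table lay beside MAFF and TMEM184B (39.1 and 10.5), inside POU2F2, the gene of the transcription factor OCT2 (37.1 and 12.1), inside CRTAC1 (36.2 and 23.8), and inside SQSTM1, the gene of the autophagy receptor p62 (34.8 and 13.8). A site within 50 kb of the serpin genes SERPINA1 and SERPINA6 had 39.2 and 17.4, one within 50 kb of TMEM158 36.3 and 15.3, and one within 50 kb of ACBD6 34.0 and 11.0. The siTEAD4-labelled folds of the 15 spanned 9.44 to 34.2, so a high control fold did not fix the fold in the other list.

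Ranking by the siTEAD4-labelled fold brought other sites forward. After NFKBIA, the highest were a site on chromosome 1 without a table gene nearby (29.7, control 30.5) and one inside SUFU, a repressor of Hedgehog signalling, near TRIM8 (28.4, control 30.8). PGK1, a glycolytic enzyme gene on chromosome X, had 19.8 at its start, rank 10 in the list labelled siTEAD4, against a control fold of 9.64 at rank 2842. The same start had folds of 18.2 (vehicle), 21.7 (XMU-MP-1) and 25.5 (TEAD). All 10 leading sites were also vehicle and XMU-MP-1 peaks, and 7 were TEAD peaks. Over all peaks labelled siTEAD4 with a control peak, these shares were 99.3%, 67.6% and 71.9%. Across the 1737 kept sites the folds of both lists had a Spearman rho of 0.46. These points share the genome's mappability and the selection of being called in both lists, so the value is a description. Of the 100 highest control folds 95 were kept, and 43 sites were among the 100 highest of both lists.

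**Figure D2:**
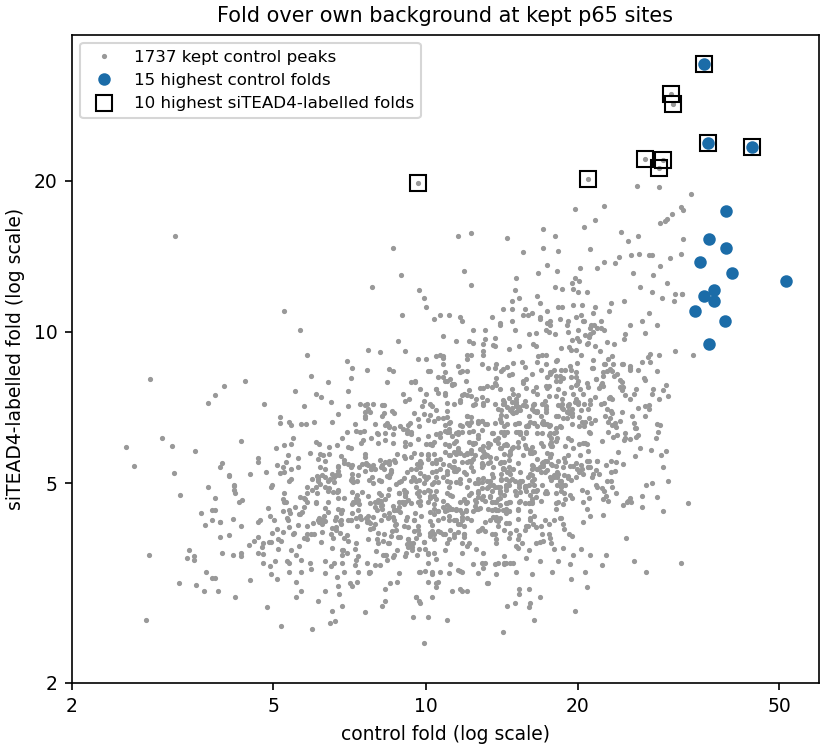
Fold over the background of its own library at the 1737 kept p65 sites, control on the x axis and labelled siTEAD4 on the y axis, both on log scales. The 15 highest control folds (filled circles) span 9.44 to 34.2 on the y axis, and PGK1 is the boxed point at 9.64 on the x axis and 19.8 on the y axis.

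The 15 strongest lost sites had control folds of 21.8 to 33.0. All 15 were vehicle peaks (77.0% of all lost sites), 1 was an XMU-MP-1 peak (2.83%) and 3 were TEAD peaks (44.2%). Another control peak lay within 10 kb of 12 of these 15, of 6 of the 15 strongest kept sites, and of 40.0% of all control peaks. The first lay within 10 kb of ZC3H12C, at chromosome 11 from 109957601 to 109958137 (hg19), with a control fold of 33.0 and a vehicle fold of 38.6, 5.26 kb from a peak labelled siTEAD4. Gene starts were covered at RELB, BCL3 and TRAF3, and also at HIP1, an endocytic adaptor (22.5), and PLA2G4C, a cytosolic phospholipase (21.9). Inside genes lay the sites of KDM6B, a histone H3K27 demethylase (27.0), HIVEP3, a zinc finger protein that binds κB motifs (24.7), A4GALT, a glycosyltransferase (22.4), and AGAP1 (21.9). RNF144B lay within 50 kb of a site of fold 28.5 and TFAP4 within 10 kb of a site of fold 23.8. The KDM6B site had a peak labelled siTEAD4 only 0.844 kb away, whereas that of HIVEP3 had none within 861 kb. Vehicle folds of the 15 ran from 7.44 at A4GALT to 38.6.

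New sites were weak and thinly spread. Their median fold was 4.36 and their median length 225 bp, against 5.42 and 284 bp for the peaks labelled siTEAD4 with a control peak, and 11 of 67 had a fold of at least 5. No new site had another within 10 kb. The median new site lay 18.8 kb from a control peak, 9 lay within 1 kb of one and 14 over 100 kb away. A vehicle peak was present at 33 of the 67 and an XMU-MP-1 peak at 15, and 15 had no peak in any of the other 3 lists. The strongest lay within 1 kb of the start of TRIM41, a ubiquitin ligase gene, with a fold of 10.9 and a TEAD fold of 27.5. Next were the start of PEMT, an enzyme of phosphatidylcholine synthesis (8.28), a site inside WRAP53 (7.42), one inside TSPAN17 (7.19), one inside FBL, the gene of fibrillarin (6.55), and one inside PRDM16 (5.73). Of the 15 strongest new sites 8 were vehicle, 6 XMU-MP-1 and 11 TEAD peaks, beside 49.3%, 22.4% and 62.7% of all new sites. The sites inside PRDM16 and DNAH17 (5.73 and 5.09) had a peak in no other list.

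Kept sites were commoner where control peaks stood close together. Of the 6182 control peaks with another within 10 kb, 15.5% were kept, and of the 9283 without one 8.39%, a difference of 7.10 percentage points (normal-approximation 95% interval 6.04 to 8.17). By distance to the nearest other control peak, the share was 17.2% (15.5 to 19.0) under 1 kb, 14.8% (13.8 to 15.9) at 1 to 10 kb, 9.11% (8.45 to 9.82) at 10 to 100 kb and 6.49% (5.59 to 7.51) over 100 kb. Median control folds in these classes lay between 5.88 and 6.15. The order held most clearly in the highest quartile of control fold, with 47.6%, 41.7%, 29.1% and 22.9%, while in the lowest quartile the shares were 3.37%, 1.30%, 1.97% and 1.14%. At equal deciles of control fold the difference between peaks with and without a neighbour was 5.21 points (4.33 to 6.09).

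**Figure D3:**
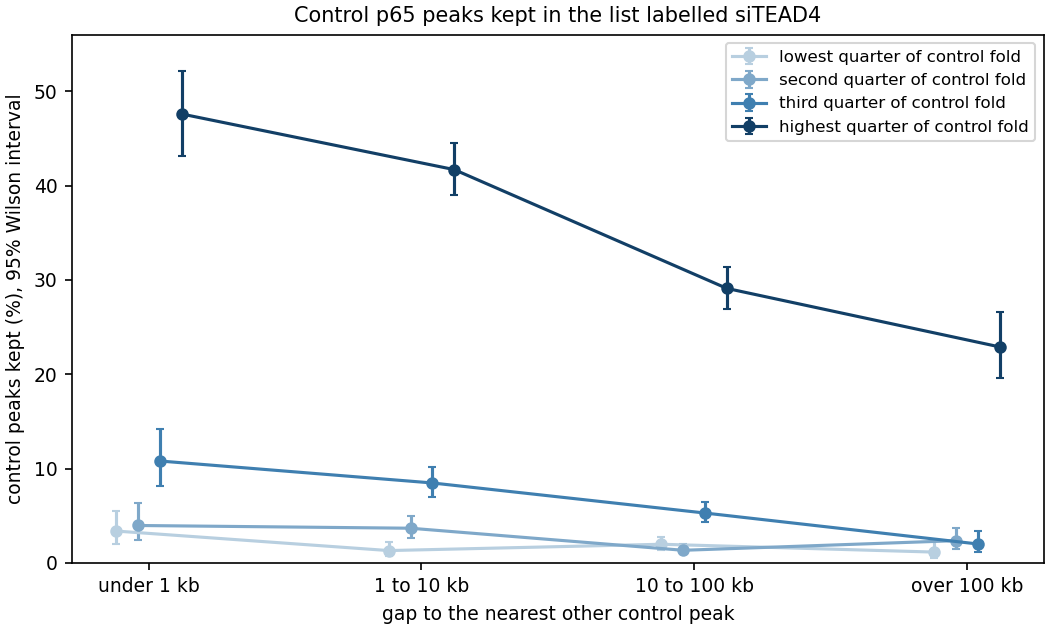
Share of control p65 peaks kept in the list labelled siTEAD4 (y axis, percent with 95% Wilson intervals) by the gap to the nearest other control peak (x axis), 1 line per quartile of control fold. The line of the highest quartile goes from 47.6% under 1 kb to 22.9% over 100 kb, and the lowest quartile stays at or under 3.37%.

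TEAD peaks followed the same spacing. Of control peaks 59.6% had a TEAD peak where the gap was under 1 kb, 54.5% at 1 to 10 kb, 44.1% at 10 to 100 kb and 35.3% over 100 kb. Split by TEAD, the share kept was 23.0% under 1 kb and 11.0% over 100 kb with a TEAD peak, and 8.58% and 4.01% without one. The difference between peaks with and without a neighbour was 8.08 points (6.34 to 9.82) with a TEAD peak and 3.06 points (1.90 to 4.21) without, and 4.98 and 2.16 points at equal deciles of fold. Whether these differ was not tested. Spacing went with the share shared in other list pairs too. Among vehicle peaks matched to the XMU-MP-1 list it was 5.97 points (5.11 to 6.84), and for control peaks matched to the vehicle list, a comparison that uses the same control list again, it was 6.18 points (4.92 to 7.45). A higher share at close spacing was thus present in each of these pairs of lists.

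When control peaks with gaps of at most about 13 kb were joined, 8.25% of peaks standing alone were kept, 12.2% in regions of 2, 15.9% in regions of 3 or 4, 20.7% in regions of 5 to 9, and 39.9% (32.5 to 47.8) in regions of 10 or more. The last class held 153 peaks with 61 kept. A single region on chromosome 1 with regularly spaced peaks, described below, gave 20 of these peaks and 17 of the kept ones. Of the 156 regions of at least 5 control peaks, 111 (71.2%, 63.6 to 77.7) held a kept peak, and in none were all peaks kept. Larger regions have more chances to hold a kept peak, so the share of regions is read beside the share of peaks. Of 2619 regions with at least 2 peaks, 777 held a kept peak, and in 690 of these (88.8%) the strongest control peak was kept. Exactly 1 peak was kept in 610 regions, and it was the strongest in 525 (86.1%). These shares cover only regions with a kept peak. The other 1842 regions had lost every peak, and over all 2619 the strongest peak was kept in 26.3%. Lost peaks standing alone carried a TEAD peak at 38.9% (37.8 to 40.0), lost peaks of regions with none kept at 49.9% (48.4 to 51.3), and lost peaks of regions with a kept one at 56.7% (54.1 to 59.3), at median control folds of 5.70, 5.78 and 5.73.

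The region with the most control peaks and the most kept ones lay on chromosome 1 from 228744171 to 228782829, with 17 of 20 control peaks kept and 18 peaks labelled siTEAD4. Its summits were regularly spaced, with a median of 2228 bp and 15 of 19 spacings within 10% of it. As background, this is where the tandem array of 5S ribosomal RNA genes lies, whose repeats are nearly identical, so reads from one repeat can be placed on another. Control folds there ran from 3.85 to 29.9 with a median of 14.2, and siTEAD4-labelled folds from 3.16 to 10.1 with a median of 6.13. Without this region 11.1% of control peaks were kept, and in regions of 5 or more peaks the share was 22.4% (19.9 to 25.2) in place of 23.7% (21.1 to 26.5). The part of mappability in these peaks was not tested.

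The region of TNIP1, on chromosome 5 from 150439513 to 150474514, had 9 of 13 control peaks kept. Its 9 kept peaks had control folds of 9.10 to 21.6 and its 4 lost peaks 5.18 to 6.03, so in this region the kept and lost peaks did not overlap in control fold. A region inside SMAD3, which encodes a transducer of TGF-β signals, lay on chromosome 15 from 67397648 to 67443171 with 5 of 11 kept. There the classes overlapped. Peaks of fold 12.51 and 10.99 were lost while one of 8.45 was kept with the same fold of 8.45 in the list labelled siTEAD4. The region within 10 kb of LIF, on chromosome 22 from 30591951 to 30632171, had 6 of 8 kept. One of its peaks had folds of 7.85 (control) and 12.3 (labelled siTEAD4). Regions on chromosome 6 from 43977739 to 44032592 and on chromosome 8 from 128863797 to 128923982, without a table gene over them, had 4 of 13 and 3 of 14 kept.

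Dense regions without any kept peak stood beside these. At BCL9L, the gene of a β-catenin coactivator, all 10 control peaks from 118781240 to 118809443 on chromosome 11 were lost, with control folds of 3.60 to 10.00. At DEPP1 and RASSF4, on chromosome 10 from 45459701 to 45477877, all 7 were lost, up to a fold of 16.7. The 7 peaks of a region at LMNA, the gene of lamins A and C, on chromosome 1 from 156076104 to 156100373, had folds of 4.45 to 9.59. The 7 at SOCS3, the feedback inhibitor of cytokine receptor signalling through STAT3, on chromosome 17 from 76326901 to 76356526, had 3.77 to 8.97. A region inside LOXL2 on chromosome 8 lost all 8 of its peaks, up to a fold of 12.9. TEAD peaks were present in each, 8 in the BCL9L region, 7 in the SOCS3 and LOXL2 regions, 5 in the LMNA region and 4 in that of DEPP1. The regions with kept peaks at TNIP1, SMAD3 and LIF held 12, 15 and 11 TEAD peaks. Those on chromosomes 6 and 8 without a table gene held 11 and 15. All of these regions with kept peaks were longer than those without. Among regions of at least 5 peaks, the median of the strongest control fold was 17.3 in those with a kept peak and 10.1 in those with none.

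**Figure D4:**
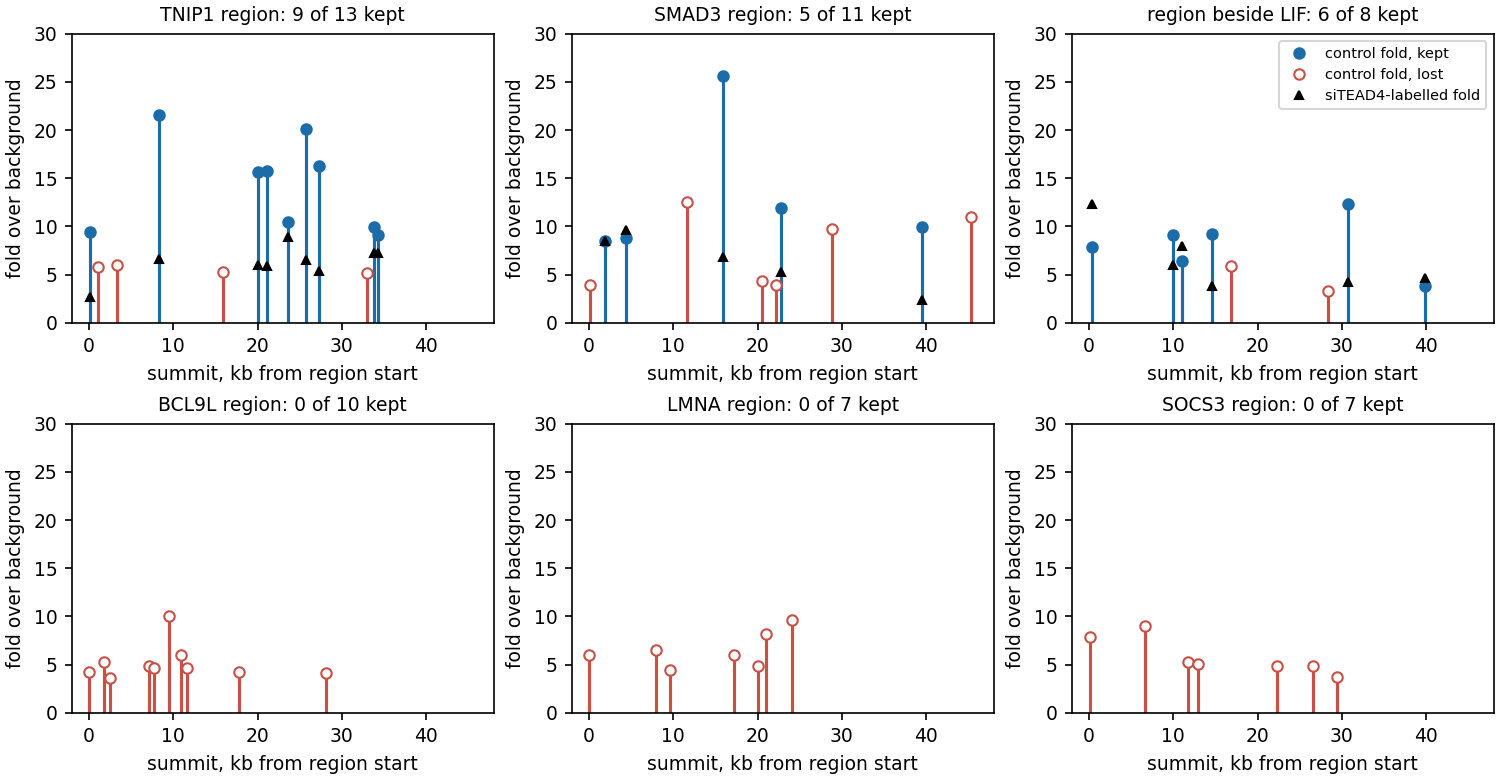
Control p65 peaks of 6 joined regions, by distance of the summit from the region's start in kb (x axis) and fold over background (y axis). Filled stems are kept and open ones lost, and triangles are siTEAD4-labelled folds; the TNIP1 region has 9 of 13 kept, and the BCL9L, LMNA and SOCS3 regions have none.

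By chromosome the share kept was near uniform. It was lowest on chromosomes 18 (8.65%), 13 (9.04%) and 15 (9.61%), and highest on chromosomes 11 (13.7%), 22 (12.8%) and 5 (12.7%). For 22 of 23 chromosomes, Y left out, the interval held the share of all control peaks, and the exception was chromosome 11 (11.4 to 16.4). The density of control peaks varied more, from 1.71 per Mb on chromosome X to 10.9 on chromosome 22, and kept peaks from 0.159 per Mb on chromosome 13 to 1.40 on chromosome 22. New sites were 16 on chromosome 1, 9 on chromosome 17 and 8 on chromosome 10, and none on chromosomes 8, 11, 13, 21 and X.

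**Figure D5:**
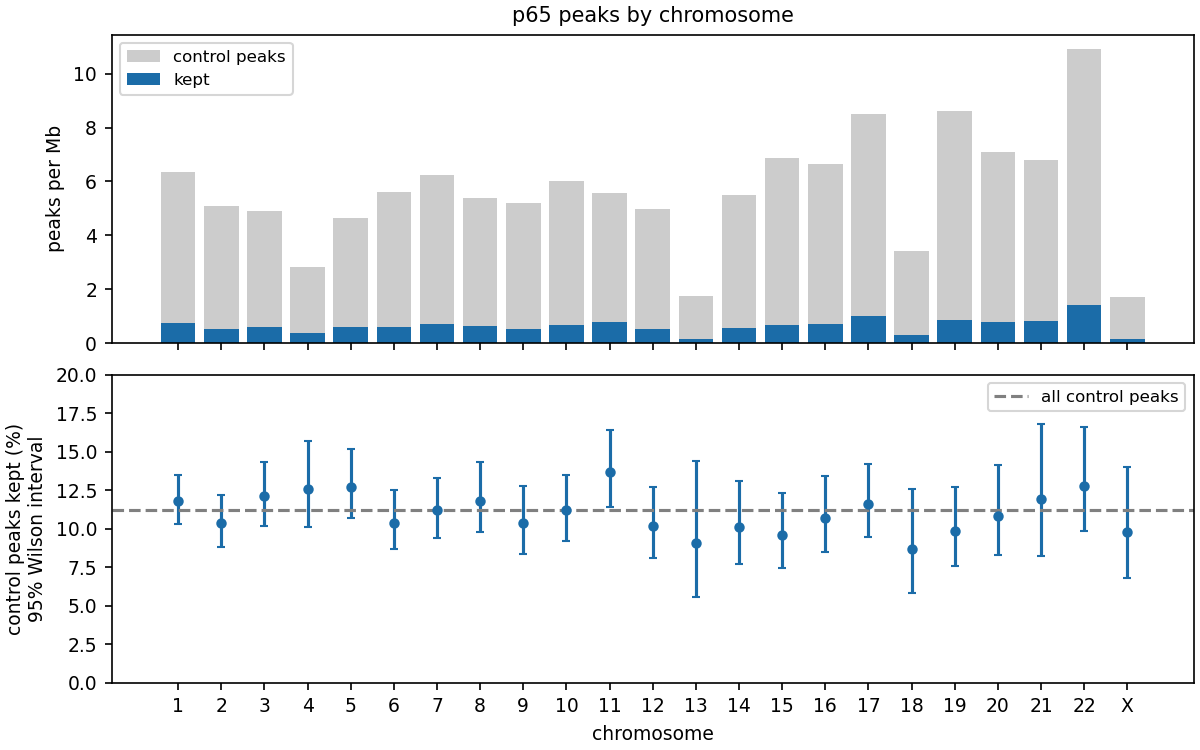
Control p65 peaks and kept peaks per Mb by chromosome (top, bars from 0) and percent of control peaks kept with 95% Wilson intervals (bottom). The dashed line is the 11.2% of all control peaks, and the interval of chromosome 11 (11.4 to 16.4) alone lies above it.

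In 1 Mb windows the share kept went with density. It was 8.16% (7.12 to 9.34) in windows of 1 to 4 control peaks, 10.1% at 5 to 9, 11.7% at 10 to 19 and 15.2% (13.8 to 16.7) at 20 or more, with median control folds between 5.95 and 6.07. The window with the most control peaks, on chromosome 11 from 65 to 66 Mb, had 7 of 38 kept. The window of the 5S array had 17 of 24, that of TNIP1 on chromosome 5 from 150 to 151 Mb 11 of 22, and chromosome 9 from 114 to 115 Mb 10 of 27. Windows of 25 peaks on chromosome 17 from 70 to 71 Mb and of 23 peaks on chromosome 16 from 11 to 12 Mb kept none. Of 99 windows with at least 20 control peaks, 6 kept none.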

How the data were processed

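Per the submitters' processing notes, reads were handled with fastp, Bowtie2 2.4.5 and MACS2 on hg19. The MACS2 version is not given in the sources used here, nor are its settings or which input was paired with which list. The authors deposited 1 narrowPeak list per library, with a fold (a ratio of summit signal to local background) and the −log10 of both the p-value and the q-value of each peak. These are the authors' values and were used only to describe, rank or filter peaks within a list.

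Peaks were matched by at least 1 bp of overlap with pandas 2.3.3, numpy 2.4.6 and scipy 1.17.1 under Python 3.11.15, and figures were drawn with matplotlib 3.10.9. The code was tested on simulated data. The members, gene lists and rules were chosen with earlier results of these data known. Loci named are the 15 strongest lost, kept and new sites, the 10 kept sites of highest siTEAD4-labelled fold, the joined regions with most control or kept peaks or with none kept, and, for each gene list, genes with kept peaks and those with the strongest lost ones. Pileup and background per peak were solved from the fold and p-value as MACS2 defines them.

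No hg19 annotation was used. Gene positions were entered by hand from general knowledge for 194 genes, after the sites were known, and kept for 184 whose length was within 5% of RefSeq's on GRCh38.p14 or whose offset from it was within 1 kb of that of a gene within 20 Mb. For 41 of these the strand was also entered by hand. The end of TNIP1 was replaced by another known value after its first length failed. Distances are therefore given only as classes, the table is not complete, and no gene is called the nearest. The design had planned gene lists only with an hg19 annotation. Promoter sequences are RefSeq's, matched by symbol: 98 of the 125 listed genes placed had an entry. Some items that these rules would name are not reported here.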

Additional observations from a re-analysis of the deposited data

How the results depend on the processing

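Across 34 alternatives, 24 gave values inside the main interval (for counts, within 1.5 times), 10 moved outside it and 0 changed sign. When both lists were limited by −log10 q, the share of control peaks kept went from 11.2% to 12.0% (limit 5) and 12.7% (limit 10), and to 9.50% with a fold limit of 5. It was 14.0% among control peaks that were also vehicle peaks, a setting chosen after seeing the data. With the −log10 q limit of 5 the new sites numbered 35 in place of 67. The neighbour difference was 5.21 points at equal deciles of control fold. With a window of 10 kb in place of 50 kb, genes with a kept peak numbered 8 for chemokines and cytokines, 4 for YAP and TEAD targets, 1 for hypoxia genes and 0 for kidney factors, in place of 13, 11, 4 and 2. The shorter window holds fewer peaks. For the remaining values the cause was not tested. Differences by distance to a gene start over all genes, and by κB motif in the peaks, were left out for want of an hg19 reference. No paired analysis was possible because there is 1 library of each kind. The lowest pileup solved, in whole fragments, was 13.0 in the control list and 12.0 in the list labelled siTEAD4.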
